A study of Mus musculus with 4 samples.

Results

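Immediate early genes are transcribed shortly after a cell is stimulated, from factors that are already present, so their mRNA needs no new protein to appear. Signals through the MAP kinases and calcium act on bound transcription factors such as SRF and CREB, and the proteins made then set which later genes are used. Brain researchers know them best as marks of recent activity in neurons, and they are also known to be induced in glia and vessel cells by injury and by taking tissue apart. The 10 genes described here were taken by symbol from the 32285 genes of the count tables. They were Fos, Fosb, Jun, Junb, Jund and Atf3, which encode members of the AP-1 and ATF family of paired transcription factors, Egr1, a zinc finger transcription factor, Ier2, a small nuclear protein, Dusp1, a phosphatase that switches MAP kinases off, and Nr4a1, an orphan nuclear receptor.

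Cells of hippocampus and sensory cortex came from wild-type mice that had been given DOCA-salt, a mineralocorticoid with salt used to raise blood pressure, or a sham procedure. There was 1 droplet library for each tissue and treatment, 4 in all. Each group had 3 mice according to the labels, which leave out whether their cells were pooled. Groups follow the sample titles. The separate treatment field goes by tissue instead: it calls both hippocampus libraries DOCA-salt and both cortex libraries sham, against the titles of 2 of the 4. With 1 library per group no difference was tested against the spread between mice. The steps by which the tissue was handled and the treatment cannot be told apart.

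The libraries held 66824217 to 70173987 unique molecular identifiers (UMIs, each standing for 1 captured transcript) in 11159 to 11402 barcodes. After filtering, 10350 to 10777 cells per library were left, at a median of 5540 to 5848 UMIs. Pairs of libraries shared 94 to 105 barcodes. Cells were put into classes by the share of their marker UMIs, and 5 classes had at least 100 cells in each library: oligodendrocyte-like, astrocyte-like, microglia-like, endothelial-like and pericyte-like. The median cell of these classes drew 70.9% to 90.3% of its marker UMIs from the markers of its own class. Oligodendrocyte-like cells numbered 2877 to 5163, microglia-like 2383 to 2715, astrocyte-like 930 to 4139, endothelial-like 651 to 1029 and pericyte-like 108 to 236 per library. No cell passed the gate for mature neurons in any library, so the class in which these genes are best known is not described.

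The stretch before the start site is shown for 3 of the genes. Fos and Dusp1 had the largest DOCA-salt to sham ratios in oligodendrocyte-like cells, and the measured ratio of Atf3 stayed near 1 there. Each stretch is the 250 bases before the RefSeq start site in GRCm38.p6, written 5′ to 3′ on the strand of the gene. Capitals mark TGACG or its reverse complement CGTCA, the core of the cAMP response element (CRE) that CREB and ATF proteins bind, and where both overlap they form the full element TGACGTCA. Fos lay at chr12:85473640-85473889 on the + strand, Dusp1 at chr17:26508473-26508722 on the - strand and Atf3 at chr1:191183334-191183583 on the - strand.
Fos: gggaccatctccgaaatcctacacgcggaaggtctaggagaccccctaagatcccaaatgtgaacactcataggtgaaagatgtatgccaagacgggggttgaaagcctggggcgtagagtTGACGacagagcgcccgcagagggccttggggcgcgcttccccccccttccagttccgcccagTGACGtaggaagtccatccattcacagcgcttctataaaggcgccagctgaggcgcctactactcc
Dusp1: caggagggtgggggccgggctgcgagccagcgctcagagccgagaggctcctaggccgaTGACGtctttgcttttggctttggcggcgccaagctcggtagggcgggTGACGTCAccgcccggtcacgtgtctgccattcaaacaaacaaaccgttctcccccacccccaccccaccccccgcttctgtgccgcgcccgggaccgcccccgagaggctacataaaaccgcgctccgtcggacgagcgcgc
Atf3: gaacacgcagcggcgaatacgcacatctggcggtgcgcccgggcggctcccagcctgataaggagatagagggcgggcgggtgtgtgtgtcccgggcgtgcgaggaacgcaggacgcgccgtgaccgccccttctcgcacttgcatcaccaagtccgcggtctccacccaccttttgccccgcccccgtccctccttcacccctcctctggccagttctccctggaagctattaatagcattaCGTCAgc

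RefSeq promoters of 300 bases, 250 before and 50 after the start, were matched for 8 of the 10 genes, all but Egr1 and Ier2. On both strands, 6 of these 8 held the core TGACG (Fos, Fosb, Junb, Atf3, Dusp1 and Nr4a1), against 20.8% of 32851 promoters of the same length. Dusp1 alone held the full element TGACGTCA, found in 1.79% of all promoters. None held the AP-1 site TGANTCA, which 7.81% of promoters held, or a CArG box, the SRF element, which 1.63% held. Elements farther than 250 bases before the start were outside the stretch searched, so this does not show that the genes lack them. The Jund stretch ended at chr8:70697788, short of the annotated start of the gene at 70698949. Matches to the EGR site GCGNGGGCG stood in Fosb and Nr4a1, and in 5.55% of all promoters. The letters TATAAA of the TATA box were found in Fos and Junb and in 13.6% of all promoters. In Fos they began 33 bases before the start site and in Junb at the start site itself, so the Junb match is given as letters only. Of the genes shown, Fos, Dusp1 and Atf3 each held the core TGACG, and its part in their ratios was not tested. The Egr1 and Ier2 promoters were not used here.

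In every library all 10 genes were lower in oligodendrocyte-like and in astrocyte-like cells than in each of the other 3 classes. Levels are UMIs of a gene per 1000000 UMIs of the class (CPM). Summed over the 10 genes, microglia-like cells held 27541 to 31298 CPM over the 4 libraries, endothelial-like cells 20141 to 28958 and pericyte-like cells 12083 to 15484. Oligodendrocyte-like cells held 1883 to 4491 CPM and astrocyte-like cells 1219 to 2419. The ranges of the first pair of classes overlapped, as did those of the last pair, and pericyte-like cells lay between, overlapping neither. Pericyte-like cells also held endothelial markers, at a summed 5900 to 8955 CPM against 22893 to 23932 CPM in endothelial-like cells. The part of endothelial RNA in the pericyte-like levels was not tested. In each library Ier2, Dusp1 and Nr4a1 were higher in endothelial-like than in microglia-like cells, and Jund was in 3 of the 4, all but cortex sham. Nr4a1 held 721 to 834 CPM in endothelial-like and 157 to 315 CPM in microglia-like cells.

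**Figure D1:**
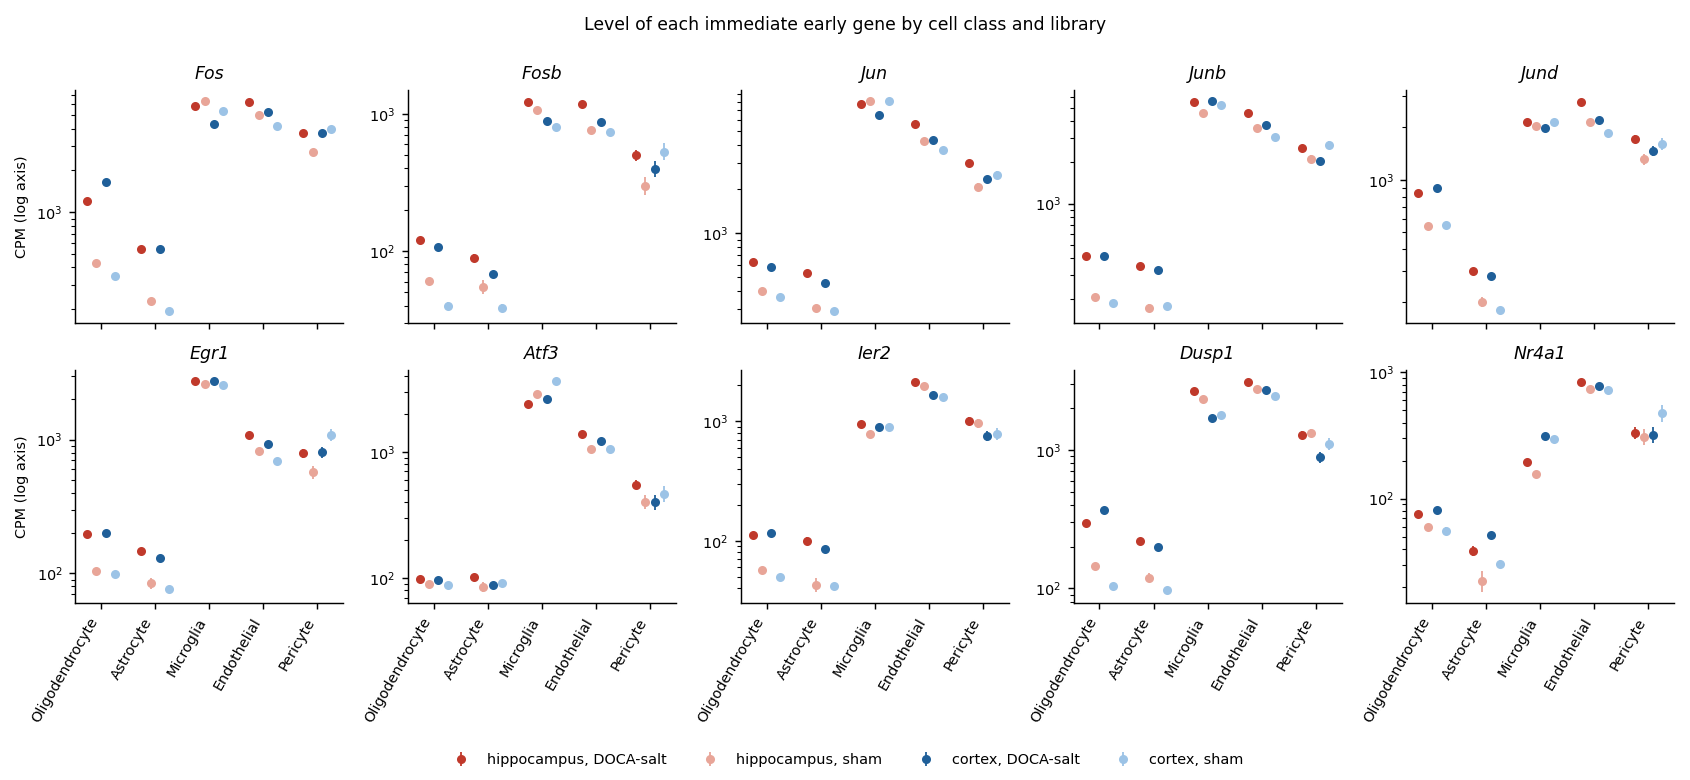
Level of each of the 10 genes (CPM, log axis) in 5 cell classes, 1 point per library, with exact 95% Poisson intervals of counting error. In oligodendrocyte-like and astrocyte-like cells the DOCA-salt points lie above the sham points of the same tissue for every gene except Atf3 in cortical astrocyte-like cells, and both classes lie below the other 3.

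DOCA-salt and sham libraries were compared within each tissue to ask in which cells these genes differed with treatment. A gene counted as measured with at least 50 UMIs in the compared libraries together, and as higher or lower past 1.5-fold. In oligodendrocyte-like cells 8 of the 10 genes were higher with DOCA-salt in hippocampus, where 5.88% of 13224 measured genes were, and 8 of 10 in cortex, where 6.12% of 12199 were. The same 8 genes made up both counts: Fos, Fosb, Jun, Junb, Jund, Egr1, Ier2 and Dusp1. In astrocyte-like cells 9 of 10 passed 1.5-fold in hippocampus (4.91% of 12064 genes) and 9 of 10 in cortex (6.17% of 13741), all but Atf3. None of the 10 was lower in either class, where 3.3% and 2.78% (oligodendrocyte-like, hippocampus and cortex) and 3.17% and 2.24% (astrocyte-like) of genes were. The median log2 ratio of the 10 genes was 0.94 and 1.07 in oligodendrocyte-like cells of the 2 tissues and 0.80 and 0.81 in astrocyte-like cells, and that of all measured genes lay between 0.02 and 0.04. With putative doublets kept, the count in cortical astrocyte-like cells was 5. The median share of mitochondrial UMIs per cell moved with treatment as well. In oligodendrocyte-like cells it was 2.66% and 2.16% in hippocampus and 2.86% and 2.31% in cortex (DOCA-salt, sham), and in astrocyte-like cells 2.43% and 3.28%, then 1.63% and 2.27%. It was thus on the DOCA-salt side in the first class and on the sham side in the second, and its part in the counts was not tested.

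Fos, the AP-1 partner that pairs with Jun proteins, showed the widest gap. In oligodendrocyte-like cells it held 1199 CPM in the DOCA-salt and 430.0 CPM in the sham library of hippocampus, and 1639.8 and 345 CPM in those of cortex. The lower DOCA-salt value was well above the higher sham value. The DOCA-salt to sham ratio was 2.79 (2.73 to 2.84) in hippocampus and 4.75 (4.63 to 4.88) in cortex, with exact 95% intervals that cover counting error only and say nothing of the spread between mice. In astrocyte-like cells Fos held 546 CPM in the DOCA-salt and 228 CPM in the sham library of hippocampus, and 542 and 196 CPM in those of cortex, again with both DOCA-salt values above both sham values.

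Fosb, a close relative of Fos, held 121 CPM in the DOCA-salt and 60.3 CPM in the sham library of hippocampus, and 108 and 39.9 CPM in those of cortex in oligodendrocyte-like cells. Its ratio was 2.01 (1.90 to 2.13) in hippocampus and 2.70 (2.48 to 2.94) in cortex. In these cells and in astrocyte-like cells the treatments did not overlap. The ratio in astrocyte-like cells was smaller, at 1.63 and 1.77.

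The Jun proteins pair with Fos proteins or with each other. Junb held 417 CPM in the DOCA-salt and 207 CPM in the sham library of hippocampus, and 412 and 188 CPM in those of cortex in oligodendrocyte-like cells, and its ratio there was 2.01 (1.95 to 2.07) and 2.19 (2.11 to 2.28). Jun held 630.5 CPM in the DOCA-salt and 397 CPM in the sham library of hippocampus, and 582 and 364 CPM in those of cortex, with smaller ratios of 1.59 and 1.6. Jund, which many cells carry without a stimulus, held 844 CPM in the DOCA-salt and 542 CPM in the sham library of hippocampus, and 891 and 549 CPM in those of cortex, and its ratio was 1.56 and 1.62. All 3 genes were higher in both DOCA-salt libraries, by less than Fos. In astrocyte-like cells their ratios were 1.73 and 1.54 for Jun, 2.04 and 1.84 for Junb and 1.51 and 1.56 for Jund.

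Atf3, a stress-induced repressor of the family, passed 1.5-fold in neither class as measured. In oligodendrocyte-like cells it held 98.3 CPM in the DOCA-salt and 90.3 CPM in the sham library of hippocampus, and 95.9 and 88.8 CPM in those of cortex. In astrocyte-like cells it held 102 CPM in the DOCA-salt and 85.3 CPM in the sham library of hippocampus, and 89.1 and 91.0 CPM in those of cortex. The ratio was 1.09 (1.03 to 1.15) and 1.08 (1.01 to 1.16) in oligodendrocyte-like cells and 1.19 (1.06 to 1.33) and 0.979 (0.921 to 1.04) in astrocyte-like cells.

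Outside the AP-1 family, Dusp1, the brake on MAP kinases, held 297 CPM in the DOCA-salt and 146 CPM in the sham library of hippocampus, and 366 and 103 CPM in those of cortex in oligodendrocyte-like cells. Its ratio was 2.03 (1.96 to 2.11) in hippocampus and 3.55 (3.37 to 3.74) in cortex. Egr1 held 196 CPM in the DOCA-salt and 104 CPM in the sham library of hippocampus, and 199 and 99.6 CPM in those of cortex, with ratios of 1.88 and 2. Ier2 held 112 CPM in the DOCA-salt and 57.0 CPM in the sham library of hippocampus, and 116 and 50 CPM in those of cortex, with ratios of 1.96 and 2.32. All 3 were higher in both DOCA-salt libraries. Nr4a1 was higher too but did not reach 1.5-fold in oligodendrocyte-like cells, at 1.29 (1.21 to 1.37) and 1.46 (1.35 to 1.59), and did in astrocyte-like cells, at 1.75 and 1.70.

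The hippocampal and cortical ratios in oligodendrocyte-like cells differed most for Dusp1 and Fos. The hippocampus ratio divided by the cortex ratio was 0.573 for Dusp1 and 0.587 for Fos, against 0.993 for Jun. Whether tissues differ in this beyond the spread between mice was not tested.

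**Figure D2:**
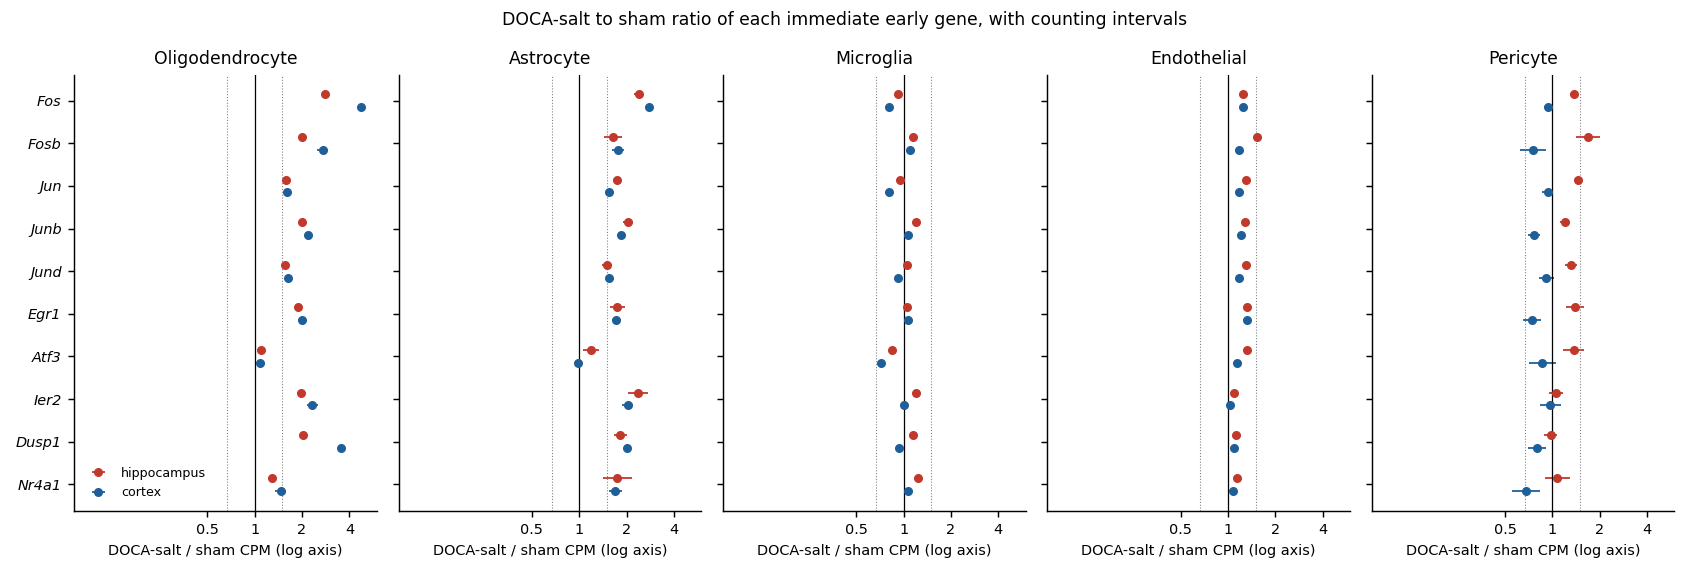
DOCA-salt to sham ratio of each gene (log axis) in 5 cell classes, red for hippocampus and blue for cortex, with exact 95% intervals of counting error. The solid line marks 1 and the dotted lines 1.5-fold either way. Fos in oligodendrocyte-like cells is farthest out, at 2.79 and 4.75, Atf3 stays near 1 in the oligodendrocyte-like and astrocyte-like panels, and the points of microglia-like cells straddle 1.

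Microglia-like cells, which held the most of these genes, showed no member 1.5-fold apart in either tissue, where 3.8% and 5.31% of all genes were higher (hippocampus, cortex) and 3.9% and 1.97% lower. Fos in microglia-like cells held 5795 CPM in the DOCA-salt and 6307 CPM in the sham library of hippocampus, and 4331 and 5370.2 CPM in those of cortex. The sham library was the higher one in both tissues, with ratios of 0.919 and 0.806. Within the 3 microglia-like clusters the cortical ratios were 0.780, 0.912 and 0.712, and those of hippocampus were 0.978, 1.19 and 1.09. The hippocampal direction thus held in the largest of these clusters alone, at 0.978 (0.968 to 0.989). The 2 largest had 1375 and 1114 DOCA-salt and 1773 and 400 sham cells. Atf3 held 2416 CPM in the DOCA-salt and 2864 CPM in the sham library of hippocampus, and 2603 and 3638 CPM in those of cortex, with ratios of 0.844 and 0.715, and Jun had 0.952 and 0.807. Fosb, Junb, Egr1, Ier2 and Nr4a1 were slightly on the DOCA-salt side in both tissues, by at most 1.23-fold.

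In endothelial-like cells all 10 genes lay on the DOCA-salt side in both tissues, 1.09 to 1.54 times as high in hippocampus and 1.03 to 1.33 times in cortex. Only Fosb in hippocampus passed 1.5-fold, at 1.54 (1.47 to 1.61), where 5.38% of genes were higher, and none did in cortex, where 4.52% were. None was lower, where 3.52% and 3.34% of genes were. Fos held 6234 CPM in the DOCA-salt and 4986 CPM in the sham library of hippocampus, and 5252 and 4199 CPM in those of cortex, with a ratio of 1.25 in hippocampus and 1.25 in cortex. In pericyte-like cells of hippocampus Fosb passed 1.5-fold, at 1.68 (1.41 to 2), with 6.53% of genes higher. In cortex Fosb stood at 0.751 (0.619 to 0.912), and no gene of the 10 was 1.5-fold apart, where 5.76% were higher. None was lower in hippocampus, where 5.27% of genes were, or in cortex, where 5.46% were. The hippocampal count of 1 was 0 when classes came from clusters, 2 with doublets kept and 3 under a stricter marker gate.

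A further class, border macrophage-like cells, had 49 to 84 cells per library, under the minimum of 100, and is given as values only. In hippocampus 7.37% of genes were higher and 7.82% lower in this class, and in cortex 5.82% and 8.34%. Jund held 3064 CPM in the DOCA-salt and 1704 CPM in the sham library of hippocampus, and 3147 and 1854 CPM in those of cortex there, and Atf3 5103 CPM in the DOCA-salt and 3441 CPM in the sham library of hippocampus, and 4360.1 and 2691 CPM in those of cortex. Both were higher in the DOCA-salt libraries, with ratios of 1.80 and 1.70 for Jund and 1.48 and 1.62 for Atf3. Egr1 went the other way in both tissues, at 0.680 and 0.687. The hippocampal Atf3 ratio was short of 1.5.

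Between tissues within 1 treatment few of the 10 genes passed 1.5-fold. In the sham libraries Fosb in oligodendrocyte-like cells was higher in hippocampus, at 1.51 (1.39 to 1.64), where 4.01% of genes were higher and 4.61% lower. That ratio was 1.28 by clusters and with doublets kept, 1.38 after thinning, 1.41 under a stricter gate, 1.44 with equal weight per cell and 1.49 within clusters, all short of the threshold. Nr4a1 in microglia-like cells was lower in hippocampus, at 0.529 (0.502 to 0.558) among sham libraries (7.01% of genes higher, 5.01% lower) and 0.613 (0.586 to 0.641) among DOCA-salt libraries (2.94% and 6.12%). It was the 1 member that passed 1.5-fold the same way in both treatments in a class of over 100 cells. Dusp1 in microglia-like cells was higher in hippocampus among DOCA-salt libraries, at 1.59 (1.57 to 1.61). With both tissues compared inside the same clusters of microglia-like cells, neither Nr4a1 nor Dusp1 passed 1.5-fold.

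In pericyte-like cells of the sham libraries Egr1, Fosb and Nr4a1 were lower in hippocampus, at 0.526, 0.562 and 0.650 (6.08% of genes higher, 5.66% lower). The count of 3 was 0 when classes came from clusters and 6 under a stricter marker gate. Among DOCA-salt libraries no member passed 1.5-fold in pericyte-like (6.75% and 4.62%) or oligodendrocyte-like cells (2.95% and 4.54%). None passed 1.5-fold in astrocyte-like cells of the sham (8.35% and 5.48%) or DOCA-salt libraries (5.87% and 3.84%), or in endothelial-like cells (4.18% and 5.11% sham, 2.52% and 4.82% DOCA-salt). In the few border macrophage-like cells Fos was 1.92 and 1.93 times as high in hippocampus (sham, DOCA-salt), where 7.72% and 7.06% of genes were higher and 9.81% and 6.01% lower.

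Cell by cell, part of the gap in oligodendrocyte-like cells lay in a minority with many of these transcripts. Each cell was thinned to 2000 UMIs, so that depth did not set the count, and shallower cells were left out (177 to 356 oligodendrocyte-like cells per library). Cells with more than 20 UMIs of the 10 genes made up 7.57% (266 of 3513) and 1.34% (65 of 4866) of oligodendrocyte-like cells in the DOCA-salt and sham libraries of hippocampus, and 11.5% (310 of 2684) and 1.23% (35 of 2857) in those of cortex. They held 34.5%, 11.6%, 44.7% and 10.9% of all UMIs of the 10 genes, in the same order. The other cells differed too: they held a mean of 5.65 and 3.67 UMIs in hippocampus and 5.77 and 3.48 in cortex. In astrocyte-like cells the minority was smaller, at 1.57% and 0.125% in hippocampus and 1.97% and 0.161% in cortex.

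Markers of microglia and endothelium differed between these groups of cells. The few oligodendrocyte-like sham cells above 20 UMIs held a mean of 6.75 (hippocampus) and 3.57 (cortex) microglial marker UMIs, and those of the DOCA-salt libraries 1.39 and 0.977. Cells at or under 20 held 0.847 to 1.04 in the 4 libraries. Of endothelial markers, oligodendrocyte-like cells above 20 held a mean of 1.49 and 1.48 UMIs in hippocampus (DOCA-salt, sham) and 0.261 and 1.91 in cortex, against 0.268 to 0.421 in cells at or under 20. At least 3 endothelial marker UMIs were found in 8.65% of the hippocampal DOCA-salt cells above 20 and in 0.739% of the others. Astrocyte-like cells above 20 of the DOCA-salt libraries held a mean of 4.46 (hippocampus) and 3.33 (cortex) endothelial marker UMIs, and those at or under 20 held 0.472 and 0.403. The part of microglial and endothelial RNA in these cells was not tested.

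**Figure D3:**
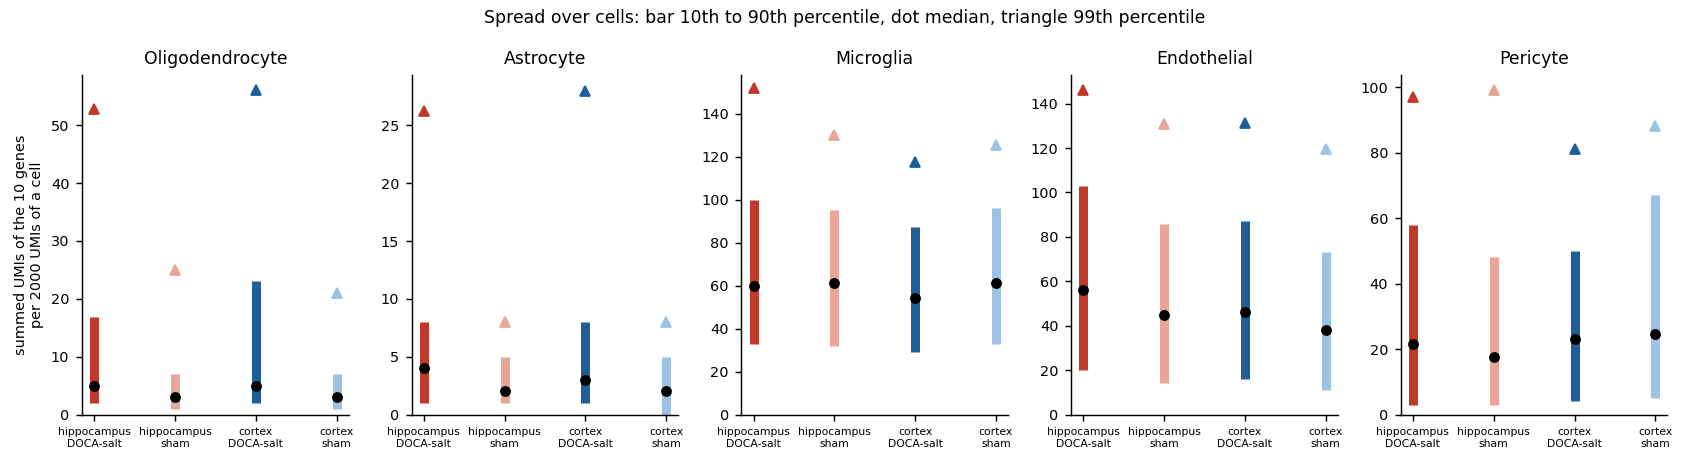
Summed UMIs of the 10 genes per cell after thinning to 2000 UMIs, by class and library; bars run from the 10th to the 90th percentile of cells, dots are medians and triangles 99th percentiles. The vertical scale differs between classes. The medians of oligodendrocyte-like cells are 5, 3, 5 and 3, while their 99th percentiles are 52.9 and 25 in hippocampus and 56 and 21 in cortex (DOCA-salt, sham).

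In oligodendrocyte-like and astrocyte-like cells the correlation of Fos with the other genes from cell to cell was higher in the DOCA-salt libraries. Spearman's correlation of Fos with the other 9 genes over thinned oligodendrocyte-like cells was 0.441 and 0.152 in hippocampus (DOCA-salt, sham) and 0.551 and 0.215 in cortex. For Atf3 it was 0.103, 0.040, 0.099 and 0.051. In astrocyte-like cells Fos had 0.227 and 0.065 in hippocampus and 0.283 and 0.058 in cortex. In endothelial-like cells (559 to 874 per library) it had 0.620 and 0.605, then 0.680 and 0.651. The order was the other way in cortical microglia-like cells, at 0.486 and 0.563, and in cortical pericyte-like cells, at 0.736 and 0.806. These are descriptions over the cells of 1 library each, which share its free RNA. Thinning evens out depth but not the level of the genes, and low counts alone lower such a correlation. The median sum of the 10 genes was 5, 3, 5 and 3 UMIs in oligodendrocyte-like cells and 4, 2, 3 and 2 in astrocyte-like cells, in the same order. The part of this lower sham level in the correlations was not tested.

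In droplet libraries free RNA can put UMIs of genes abundant in 1 class into cells of another. The share of thinned cells with a Fos UMI was 58.7%, 40.5%, 59.1% and 31.4% in oligodendrocyte-like cells (DOCA-salt and sham of hippocampus, then DOCA-salt and sham of cortex) and 51.4%, 34.3%, 47.5% and 28.0% in astrocyte-like cells. In erythroid-like cells, which have no nucleus, it was 42.1%, 52.5%, 47.3% and 45.8%, at a median of 7028 to 8052 UMIs per cell against 5552 to 6398 in oligodendrocyte-like and 4930 to 6284 in astrocyte-like cells. Before thinning it was 84.4%, 73.4%, 78.7% and 59.7% in oligodendrocyte-like cells. The exact binomial 95% intervals of the erythroid-like shares were wide, 32.6% to 52.0% and 33.7% to 61.2% in the DOCA-salt libraries. The sham shares of both classes were under the erythroid-like ones, so these shares alone are not read as expression. Some erythroid-like cells held many UMIs of the 10 genes. After thinning, 14.8% and 20.8% of those in the sham libraries (hippocampus, cortex) held more than 20, and 4.67% and 1.82% in the DOCA-salt libraries. Of oligodendrocyte-like sham cells 1.34% and 1.23% did. Whether the erythroid-like shares stand for free RNA alone was not tested. Of the DOCA-salt shares, that of oligodendrocyte-like cells lay above the erythroid-like interval in hippocampus and inside it in cortex, and those of astrocyte-like cells lay inside it. The share with a Jund UMI was 63.4% to 78.4% in oligodendrocyte-like cells, against 29.9% to 42.6% in erythroid-like cells. Thinning counted haemoglobin UMIs, which lowers every erythroid-like share, so the shares of neither gene compare like with like. With haemoglobin left out, erythroid-like cells held 1140 to 1568 CPM of Jund and 2141 to 4192 CPM of Fos. Oligodendrocyte-like cells held 542 to 891 CPM of Jund and 345 to 1640 CPM of Fos. The Jund shares are thus not read as expression either.

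An estimate of the free RNA in each class was made from the markers of microglia and endothelium found in it. All 10 microglial markers had UMIs in oligodendrocyte-like and astrocyte-like cells of the 4 libraries. Their summed level was 458 to 549 CPM in oligodendrocyte-like cells and 528 to 699 CPM in astrocyte-like cells, which is 2.48% to 3.59% of the level in microglia-like cells. None of the 10 was at 0. In oligodendrocyte-like cells the summed level was 1.06 and 1.01 times as high in the DOCA-salt libraries, and in astrocyte-like cells 1.21 and 1.15 times. Endothelial markers stood at 0.915 and 0.799 times in oligodendrocyte-like and 1.05 and 1.22 times in astrocyte-like cells. Some other lists differed more. In oligodendrocyte-like cells astrocyte markers held 576 and 351 CPM in hippocampus (DOCA-salt, sham) and 1284 and 973 CPM in cortex, ratios of 1.64 and 1.32. Neutrophil markers held 123 and 9.49 CPM there in hippocampus and 22.5 and 12.2 CPM in cortex, ratios of 12.9 and 1.85, and smooth muscle markers had ratios of 2.24 and 4.63 at no more than 43.4 CPM. In astrocyte-like cells neutrophil markers held 137 and 7.41 CPM in hippocampus and 28.6 and 14.9 CPM in cortex, ratios of 18.5 and 1.92. Erythroid markers had ratios of 1.33 and 1.47 in oligodendrocyte-like and 1.71 and 1.76 in astrocyte-like cells. The part of these other lists in the levels of the 10 genes was not tested. Free RNA at the microglial share given above and the matching endothelial share would carry 27.6%, 47.1%, 19.8% and 48.3% of the summed level of the 10 genes in oligodendrocyte-like cells and 58.8%, 85.4%, 54.8% and 85.0% in astrocyte-like cells, in the order of libraries above.

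Taking this estimate off, an alternative added after the data were seen, gave summed DOCA-salt to sham ratios of 2.61 and 3.70 in oligodendrocyte-like cells. The summed estimate there was of like size in both treatments, 1100 and 987 CPM in hippocampus and 891 and 909 CPM in cortex (DOCA-salt, sham). Taking like amounts off both sides raises a ratio above 1 by arithmetic, so the rise says nothing more about treatment. Fos was left at 988 and 225 CPM in hippocampus and 1491 and 182 CPM in cortex. In astrocyte-like cells Fos was left at 272 and -4.43 CPM and at 336 and 9.90 CPM, so that the sham levels were about the size that free RNA would carry. Jund kept most of its own level in oligodendrocyte-like cells, with 7.47% to 13.1% carried, and its ratio stood at 1.62 and 1.71. For Atf3 the estimate was 79.0% to 110% of the measured level in oligodendrocyte-like cells and 98.5% to 123% in astrocyte-like cells, so its measured values there are not read as expression by these cells. What was left of Atf3 in oligodendrocyte-like cells was 20.6 and 8.74 CPM in hippocampus, a ratio of 2.36, and 17.8 and -9.04 CPM in cortex. In cortex the estimate for astrocyte-like Atf3 exceeded the measured level in both libraries.

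**Figure D4:**
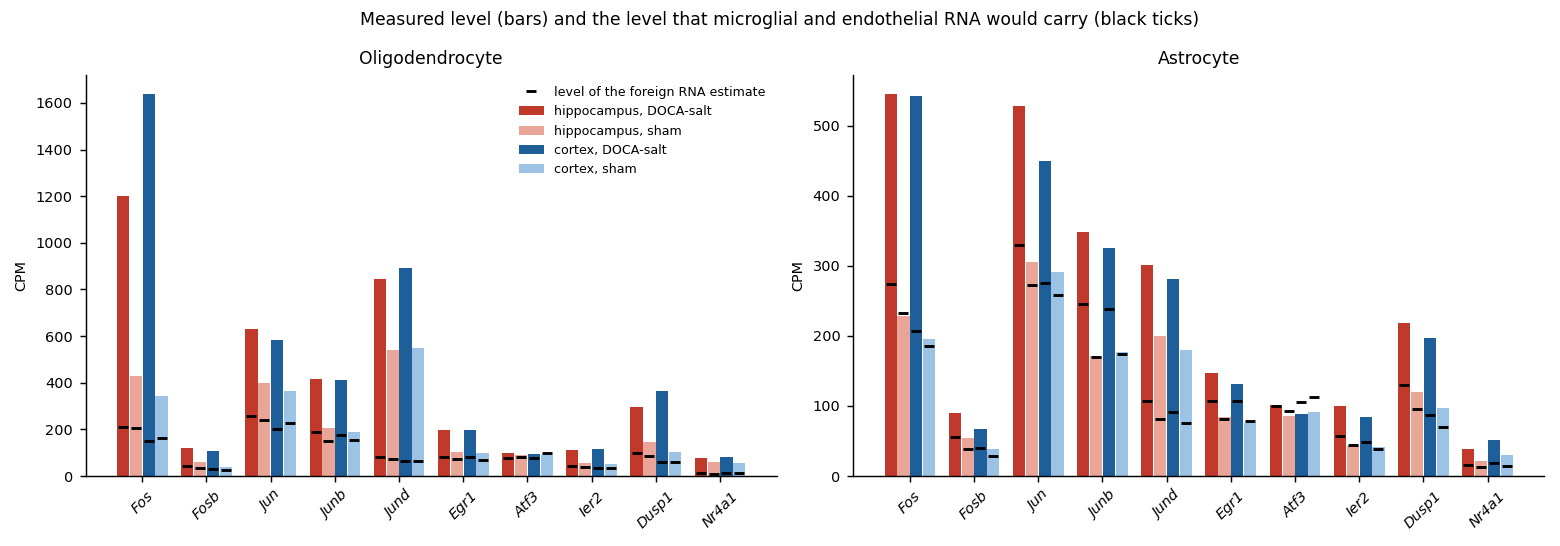
Measured level (bars, CPM) of each gene in oligodendrocyte-like and astrocyte-like cells by library, with the level that free microglial and endothelial RNA would carry (black ticks). In astrocyte-like cells of the sham libraries the ticks for Fos stand at 101.9% and 94.9% of the bars, and in oligodendrocyte-like cells of the DOCA-salt libraries at 17.6% and 9.10%.

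The higher sum was found in all clusters of oligodendrocyte-like cells compared. Cells were also clustered without the immediate early genes, and the summed level of the 10 was higher with DOCA-salt, with an interval above 1, in 7 of 7 oligodendrocyte-like clusters of hippocampus (ratios 1.40 to 3.19) and 5 of 5 of cortex (1.41 to 2.72). In astrocyte-like clusters this held in 5 of 6 in each tissue. In microglia-like clusters of cortex the sum was lower in 3 of 3, at 0.761 to 0.935. In those of hippocampus it was higher in 2 of 3, at 1.03 and 1.09, and the other stood at 0.973 with an interval that held 1. One oligodendrocyte-like cluster of hippocampus held 2781 sham and 90 DOCA-salt cells, and its ratio was 2.02. The ratio of 3.19 came from 120 DOCA-salt and 43 sham cells of a cluster with a median of 829 UMIs. Oligodendrocyte markers made up 51.3% of the marker UMIs of that cluster. For Fos alone the interval lay above 1 in 6 of 7 oligodendrocyte-like clusters of hippocampus and 5 of 5 of cortex.

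Other genes of the same pathways, counted over whole lists, were higher in part. The lists were chosen with earlier results of these data known. Of the genes named, Socs3, Klf4 and Gadd45b were picked for being at least 1.5-fold higher in both tissues in 2 classes, as Btg2 also was. Of 25 other primary response genes measured in oligodendrocyte-like cells of hippocampus 7 were at least 1.5-fold higher (5.88% of all genes), of 24 in cortex 7 (6.12%), and in astrocyte-like cells 11 of 25 (4.91%) and 9 of 25 (6.17%). The median log2 ratio was 0.35 and 0.42 in the first and 0.58 and 0.48 in the second class. Btg2, an antiproliferative gene, had ratios of 1.55 and 1.65 in oligodendrocyte-like and 2.04 and 1.99 in astrocyte-like cells. Socs3, a brake on cytokine signalling, had 2.72 and 3.87 in oligodendrocyte-like and 2.31 and 2.04 in astrocyte-like cells. Klf4 and Gadd45b were higher in both classes and tissues as well, and Nfkbia, the inhibitor of NF-kappaB, was not, at 0.916 and 0.998 in oligodendrocyte-like cells.

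The closest relatives were mostly at low levels. Of the other AP-1 and ATF genes 3 of 8 (5.88% of all genes) and 3 of 6 (6.12%) measured were higher in oligodendrocyte-like cells (hippocampus, then cortex), Maff among them at 1.66 and 1.67, while Atf4 had 1.40 and 1.37. Of the other EGR and NR4A genes 3 of 4 (5.88% of all genes) and 1 of 4 (6.12%) were higher, and Egr2, which Schwann cells need to make myelin, held 11.9 against 3.30 CPM in hippocampus and 11.4 against 4.29 CPM in cortex. Of the other feedback genes, the Dusp, Spry and Spred brakes on MAP kinase signalling, 1 of 7 measured was higher in oligodendrocyte-like cells of each tissue (5.88% and 6.12% of all genes), Dusp5 in hippocampus at 1.63 and Dusp2 in cortex at 1.81. In endothelial-like cells 4 of 7 were in hippocampus (5.38% of all genes) and 1 of 7 in cortex (4.52%), with Dusp2 at 1.94 and 2.59 and Spry2 at 2.14 and 1.49. Of the upstream factors and kinases 1 of 17 (5.88% of all genes) and 0 of 17 (6.12%) were higher in oligodendrocyte-like cells, and Mapk3, the kinase ERK1, had 1.08 and 1.07.

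Of 8 neuronal activity genes only 3 were measured in oligodendrocyte-like cells, 0 of them higher in hippocampus (5.88% of all genes) and 1 in cortex (6.12%). That was Arc, a synaptic gene, which held 73.4 against 55.6 CPM in hippocampus and 72.1 against 41.2 CPM in cortex (DOCA-salt against sham). Of the stress lists, heat shock genes lay on the sham side. In microglia-like cells 5 of 12 heat shock genes were at least 1.5-fold lower in hippocampus (3.9% of all genes were lower) and 7 of 12 in cortex (1.97%), with a median log2 ratio of -0.53 and -0.63. Hspb1, a small heat shock protein, had 0.630 and 0.650 there. Of the corticosteroid targets 4 of 8 were lower in oligodendrocyte-like cells of hippocampus (3.3% of all genes) and 5 of 8 in cortex (2.78%), and the transcription factor Zbtb16 had 0.208 and 0.161. Of the same targets, Sgk1, a kinase, had 0.440 and 0.475. Their part in the levels of the immediate early genes was not tested.

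Over the 20 points of 5 classes and 4 libraries, the gene whose log2 levels followed the mean of the 10 most closely was Klf4, with a Pearson correlation of 0.988, followed by Rassf1 at 0.985 and H2-D1 at 0.983. With values centred within each class the leading genes were Btg2 at 0.940, Gadd45b at 0.896 and Sspn at 0.891. Among the 10 genes themselves, each was set against the mean of the other 9. On the centred scale Jund at 0.974 and Junb at 0.974 were most alike the rest and Atf3 at 0.422 and Nr4a1 at 0.562 least. Without centring Junb at 0.992 and Fosb at 0.990 were most alike the rest and Nr4a1 at 0.893 and Atf3 at 0.932 least. The points share libraries, so these correlations are given with no test.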

How the data were processed

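Droplet libraries with unique molecular identifiers (UMIs) were made from hippocampus and sensory cortex, 1 per tissue and treatment. The authors deposited raw UMI counts per gene and barcode. Per the submitters' processing notes the build was GRCm38 and the tools were STAR, Subread, fastp and Seurat. Versions, filters and the counting strand are not given in the sources used here. Without strand, reads of Jun and its antisense neighbour Junos (3639 UMIs against 630682), of Junb and Prdx2 (62348 against 449081) and of Dusp1 and Ergic1 (5571 against 218938) cannot be told apart where the genes overlap.

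Barcodes with under 300 genes or over 20% mitochondrial UMIs were dropped (48 to 163 per library), as were 474 to 736 putative doublets per library called with Scrublet in scanpy 1.11.5 at an assumed rate of 8%. A cell joined a class when at least 50% of its marker UMIs, over at least 3 markers, belonged to that class, and an erythroid-like class at 30% haemoglobin UMIs. UMIs were summed per class and library and given per 1000000. Ratios have exact 95% intervals conditional on the sum of both counts (scipy 1.17.1) and levels exact Poisson ones. UMIs in 1 library are not independent mice, and all intervals cover counting error only. No test across libraries was run: with 1 library per group, a fit of tissue and treatment would take the difference in treatment ratio between tissues as its error.

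Genes were described if they were among the 10 members, the 8 genes most alike their mean on each of 2 scales, or, from each other list, the 2 with most UMIs and those apart the same way in both tissues in most classes. Dusp5 was named after its values were seen. The members and lists were chosen with earlier results of these data known. Alternatives were a stricter barcode filter, doublets kept, a stricter marker gate, clusters built without the 10 genes and the other immediate early lists, equal weight per cell, thinning, no minimum of UMIs, scaling by the median gene and 2-fold. Within-cluster values and subtraction of free RNA were added after seeing the data. The ratio intervals were tried on simulated counts drawn from the counting model that they assume. Those counts lack the uneven spread of UMIs over cells, which this trial therefore cannot judge.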

Additional observations from a re-analysis of the deposited data

Results flagged for a closer look

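In some classes the DOCA-salt to sham ratio lay above 1 in hippocampus and below 1 in cortex, with both counting intervals clear of 1. With 1 library per group these differences between tissues were not tested. In microglia-like cells this held for Jund, whose hippocampus ratio was 1.15 times its cortex ratio, for Dusp1 at 1.23 times, and for the summed 10 genes at 1.14 times. In pericyte-like cells it held for Fosb at 2.23 times, Egr1 at 1.87 times, Junb at 1.58 times and the summed 10 genes at 1.48 times. The pericyte-like values rest on 236 and 157 cells of hippocampus and 168 and 108 of cortex (DOCA-salt, sham). These cells also held endothelial markers, and the part of endothelial RNA in their ratios was not tested.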

How the results depend on the processing

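No paired analysis was possible because the groups share no more than 1 replicate number and no value comes from a test. No member past 1.5-fold changed direction under any alternative for which its ratio could be formed. With free RNA taken off, the sham remainder was negative for Fos and Ier2 in astrocyte-like cells of hippocampus. It was also negative for Egr1 in those of cortex, so these members past 1.5-fold had no such ratio. Counts of higher members with DOCA-salt moved as follows. Past 2-fold, hippocampus had 4 oligodendrocyte-like, 3 astrocyte-like, 0 endothelial-like and 0 pericyte-like members, and cortex 6 oligodendrocyte-like and 3 astrocyte-like, where 1.57%, 1.32%, 1.28%, 1.39%, 1.46% and 1.75% of all genes were higher. Pericyte-like cells of hippocampus had 0 by clusters, 3 under the stricter gate and 2 with doublets kept. Astrocyte-like cells of cortex had 5 with doublets kept. In cortex 1 pericyte-like member was lower with equal weight per cell and 1 after thinning.

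Between sham libraries, the 1 oligodendrocyte-like member higher in hippocampus became 0 by clusters, under the stricter gate, with doublets kept, with equal weight, after thinning, past 2-fold and within clusters. Microglia-like cells had 0 lower past 2-fold and within clusters, and astrocyte-like cells 1 higher after thinning. Pericyte-like cells had 0 lower by clusters, 6 under the stricter gate and 0 past 2-fold. Between DOCA-salt libraries, microglia-like cells had 0 higher and 0 lower past 2-fold and within clusters, and pericyte-like cells 1 higher with doublets kept and 1 after thinning. The cause of these moves was not tested, except that 2-fold is a higher bar.

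Of 200 ratios of members, 52 moved beyond their counting interval by clusters, 48 with doublets kept, 84 with equal weight, 61 under the stricter gate, 52 after thinning, 8 with scaling by the median gene, 75 within clusters, and 0 with the stricter barcode filter or no minimum of UMIs. With free RNA taken off 32 moved of the 34 DOCA-salt to sham ratios that could be formed in oligodendrocyte-like and astrocyte-like cells.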

Other observations

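Lymphocytes were too few for a comparison. In 11 to 53 B cell-like cells per library Nr4a1, which antigen receptors are known to induce, held 855 to 1691 CPM and Jund 2879 to 4121 CPM, above the ranges of the 5 larger classes. In 23 to 55 T or NK cell-like cells Nr4a1 held 496 to 699 CPM and Junb 2467 to 4906 CPM.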
